A study of Mus musculus with 16 samples.

Results

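The 8 control mice of a study of mitochondrial calcium entry in nigral dopaminergic neurons were described here on their own, out of 16 mice in all. They were chosen by their label alone, and no genotype was compared. Each carried 1 copy of DAT-Cre (DAT-Cre +/-, an allele in which Cre recombinase is driven from the dopamine transporter gene Slc6a3) and no floxed allele, and came from crosses of DAT-Cre homozygotes with C57/BL6 mice. All received the same agent, an AAV9 vector with a Cre-dependent cassette for a Flag- and Myc-tagged ribosomal protein (Rpl22l1) and tdTomato, injected into the substantia nigra pars compacta (SNc). The animals were at postnatal day 45, and the tissue was taken 30 days after the injection. The labels gave no sex. Ribosomes bearing the tag were pulled from dissected SNc with anti-Flag beads, and their polyadenylated RNA was sequenced, so what follows describes mRNA bound to tagged ribosomes of cells that met both the virus and Cre, plus whatever RNA came along with the beads. The unbound tissue RNA was not analysed here, so no gene could be called enriched or depleted against the tissue.

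Dopaminergic neurons of the SNc make dopamine from tyrosine through tyrosine hydroxylase (Th) and aromatic amino acid decarboxylase (Ddc), load it into vesicles through the vesicular monoamine transporter (Slc18a2), and take it back up through the dopamine transporter (Slc6a3). They fire without synaptic drive, carry very large axonal arbors, and have a high demand for mitochondrial ATP. RiboTag profiling reads which mRNAs are held by the ribosomes of such cells, and not how much protein is made from them.

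The libraries were of similar depth, between 18999107 and 22016362 counted reads (median 20505890). A gene at the floor of 3 counts therefore stood at 0.136 to 0.158 counts per 1000000 counted reads (CPM), depending on the library. Pairwise correlation of log2 CPM between mice ran from 0.800 to 0.873, and no pair of libraries was close enough to be a repeat of the same library. Levels are given below as CPM where mice are compared for the same gene, and as CPM per kb of merged exon length where genes are compared with each other.

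Th was the most abundant gene of all on both scales. Its mRNA (chromosome 7, 142892752 to 142931128, minus strand, mm10) ranged over the 8 mice from 4783 to 7225 CPM with a median of 5959, and averaged 2501 ± 368 CPM per kb (SD, n = 8). The values were spread evenly, and no mouse stood apart. Slc6a3 (chromosome 13, 73536747 to 73578672, plus strand) ranged from 2796 to 4341 CPM around a median of 3155, Ddc (chromosome 11, 11814101 to 11898144, minus strand) from 1952 to 2646 around 2375, and Slc18a2 (chromosome 19, 59260896 to 59296012, plus strand) from 1391 to 2254 around 1578. Together the 4 markers took 1.32% ± 0.10 (SD, n = 8) of all counted reads. The defining markers thus stood at high levels in every library.

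Per kb of merged exon, the markers followed the order Th, Slc6a3, Ddc, Slc18a2 in 8 of 8 mice. Th was above Slc6a3 by 1.41 ± 0.35 on the log2 scale (CPM per kb with a pseudocount of 1), Slc6a3 above Ddc by 0.81 ± 0.20, and Ddc above Slc18a2 by 0.73 ± 0.21 (SD, n = 8; exact two-sided sign-flip permutation test, adjusted p = 0.0078 for each of the 3, the smallest the test can give). The place of Ddc depended on which length was used. Its longest transcript has 2018 bases against 4461 bases of merged exon, and with the longest transcript Ddc stood above Slc6a3, with the log2 ratio of Slc6a3 to Ddc at -0.33 (adjusted p = 0.016, exact permutation test). Th stayed at the top of the 4 and Slc18a2 at the bottom with either length.

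Among the most abundant genes per kb, after Th came Stmn3, a neuronal regulator of microtubules, at 2355 ± 241 CPM per kb, and Cox8a, a small subunit of cytochrome c oxidase, at 2328 ± 213. Their order was not fixed from mouse to mouse: Th was above Stmn3 in 6 of 8 mice, and Stmn3 above Cox8a in 4 of 8. Cox8a was above Cox6a1, and Cox6a1 above Cox6b1, in 8 of 8 mice. Further down, only Bex2 was above the next gene, Gap43, in every animal, and the other neighbours did not differ beyond their spread.

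**Figure D1:**
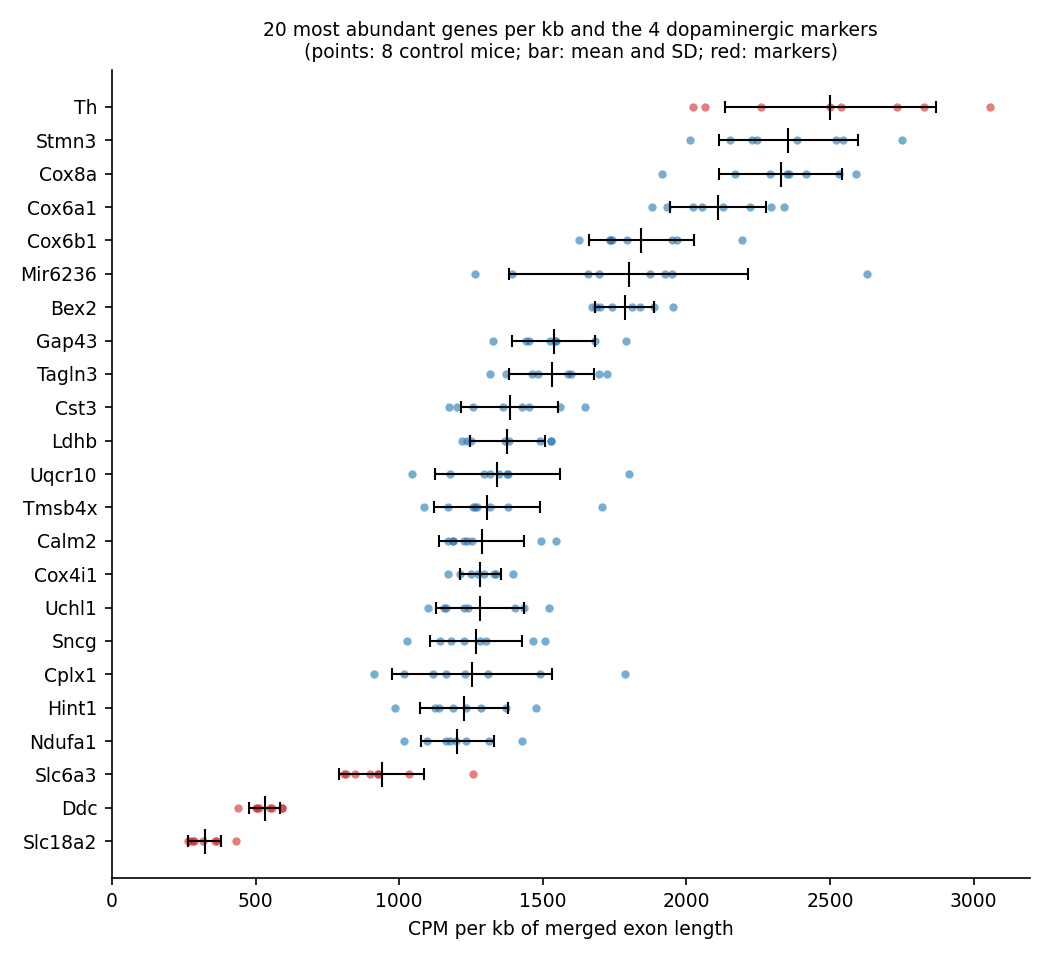
CPM per kb of merged exon length (x axis) for the 20 most abundant genes and the 4 dopaminergic markers, 1 point a mouse, with the mean and SD over 8 control mice as a bar. Th spans 2023 to 3056 CPM per kb and overlaps Stmn3 and Cox8a, while Slc6a3, Ddc and Slc18a2 lie below the top 20.

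Respiratory chain mRNA filled much of the upper range. Cytochrome c oxidase subunits Cox8a, Cox6a1 (2110 ± 167 CPM per kb), Cox6b1 (1843 ± 183) and Cox4i1 (1283 ± 72.5), the complex III subunit Uqcr10 (1342 ± 217) and the complex I subunit Ndufa1 (1203 ± 126) were all in the top 20. Of 75 nuclear genes for subunits of oxidative phosphorylation (OXPHOS), 75 had at least 3 counts in every mouse, against 39.4% of the 25006 genes listed, and 30 were among the 100 most abundant genes per kb. As a class they took 5.18% ± 0.27 of counts (SD, n = 8). Ribosomal protein mRNA, usually an abundant class in growing cells, took 2.04% ± 0.11 over 85 genes, with a median of 112 CPM per kb against 381 for the OXPHOS class. The ribosomal class includes Rpl22l1 (mean 702 CPM), which the vector carries. Sequence shared with other genes was not examined for either class as a whole, so its part in this difference was not tested. The 13 mRNAs encoded by mitochondrial DNA were listed at 0 in all 8 mice, so the mitochondrial share of the chain could not be set beside the nuclear share.

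Glycolytic enzymes were also near the top. Ldhb, the lactate dehydrogenase subunit found where lactate is oxidised, was at 1376 ± 131 CPM per kb, and the aldolase gene Aldoa at 1097 ± 93.1. For Ldhb, 20.99% of the 50-base stretches of its transcripts occur in another gene's transcripts as well, so its level is uncertain. All 16 glycolytic genes of the list passed 3 counts in every mouse, beside the same 39.4% of all genes, and their summed level lay between 12596 and 15711 CPM.

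Several genes of the axon and synapse were also among the top 20. Gap43, a growth cone protein kept by some adult neurons, stood at 1538 ± 144 CPM per kb, the actin-binding Tagln3 at 1531 ± 146, the ubiquitin hydrolase Uchl1 at 1281 ± 153, the release regulator Cplx1 at 1253 ± 279 and the synuclein Sncg at 1267 ± 161. The 20 pan-neuronal genes summed to 20592 to 23646 CPM, a coefficient of variation (CV, the SD over the mean) of 0.0494. By CPM alone, without regard to length, the genes after Th were Lars2 (4693 ± 965 CPM) and the reticulon Rtn1 (4458 ± 251 CPM).

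Some highly placed genes were less even than genes of like level. Mir6236, at 1799 ± 416 CPM per kb, is a gene model of only 123 bases, and Lars2, which encodes the mitochondrial leucyl-tRNA synthetase, was the second gene by CPM but only the 122nd per kb. The CV was 0.231 for Mir6236 against a running median of 0.164 for genes of like level, 0.206 for Lars2 against 0.115, and 0.222 for Cplx1 against 0.115. Of the 50-base stretches of Lars2 transcripts, 0.196% were shared with other genes in GENCODE M21. That search covered annotated transcripts only, so it could not tell whether reads from sequence outside them were counted for Lars2 or Mir6236.

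The dopaminergic program reached well beyond the 4 markers. Of 32 further genes of these neurons, 29 had at least 3 counts in all 8 mice, against 39.4% of the 25006 genes listed. For synthesis of the hydroxylase's cofactor, Gch1 was at 48.6 ± 11.8 and Qdpr at 213 ± 28.9 CPM per kb. The aldehyde dehydrogenase Aldh1a1, a mark of the ventral tier of the SNc, was at 443 ± 74.9 and the orphan transporter Slc10a4 at 515 ± 53.5 CPM per kb. Surface receptors followed, with the nicotinic subunit Chrna6 at 281 ± 41.7, the GDNF receptor kinase Ret at 184 ± 20.7 and the dopamine autoreceptor Drd2 at 149 ± 20.1 CPM per kb.

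Transcription factors that specify the lineage were lower but present throughout. En1 stood at 98.1 ± 17.5, Pitx3 at 75.1 ± 16.9 and Nr4a2 at 66.9 ± 8.24 CPM per kb, whereas Lmx1b (8.73 ± 2.37) and Foxa2 (10.4 ± 4.88) were lower still. Nr4a2 ranged from 236 to 348 CPM, and 7 of its values lay close together with mouse 8 above them. Genes tied to particular dopaminergic subgroups stood at very different levels. Calb1, a calcium-binding protein of dorsal tier and ventral tegmental cells, was at 68.0 ± 19.2 CPM per kb, and Sox6, typical of the ventral tier, at 3.27 ± 0.57. Otx2 was at 0 in 1 mouse with a highest value of 19.0 CPM, and Vip at 0 in 4 mice with a highest value of 13.8 CPM. Slc17a6, the vesicular glutamate transporter of a subset of these neurons, ranged from 11.0 to 46.9 CPM around a median of 31.3. In bulk RNA, fewer cells of a type and less RNA per cell cannot be told apart.

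Detection was sharply divided. In all 8 mice 9845 genes had at least 3 counts, 9148 genes (36.6%) had none in any mouse, and 5706 lay between, with 0 in some of the mice. Of 21017 protein-coding genes listed, 9652 were detected throughout and 6193 were at 0 throughout. Sensory receptor families filled a good part of the latter, with 1055 of 1117 olfactory receptor genes and 309 of 322 vomeronasal receptor genes at 0 in all 8 mice. Of 1185 microRNA genes, 1124 were at 0; the libraries were made from polyadenylated RNA, which leaves mature microRNAs out. A 0 in all 8 libraries allows a level of up to 0.0183 CPM over the group, for counting error only.

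Absence in a single library was common at levels where counting alone would almost never give it. Of 11856 genes with a mean count of 50 or more, 1866 had 0 in at least 1 mouse, while a mean count of 50 gives a 0 by counting with a probability of 1.93e-22. That probability covers the sampling of reads only, and the loss of molecules before sequencing was not measured. Between a mean of 10 and 20 CPM, 9.82% of genes had a 0 somewhere. Between 20 and 50 CPM the share was 0.478%, and above 50 CPM it was 0. The highest of these genes included Ddx3y, on the Y chromosome, at 0 in 4 mice, the interferon-induced Ifit1 and Usp18, and Tac1, the substance P precursor, which ran from 0 to 58.6 CPM around a median of 20.2.

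**Figure D2:**
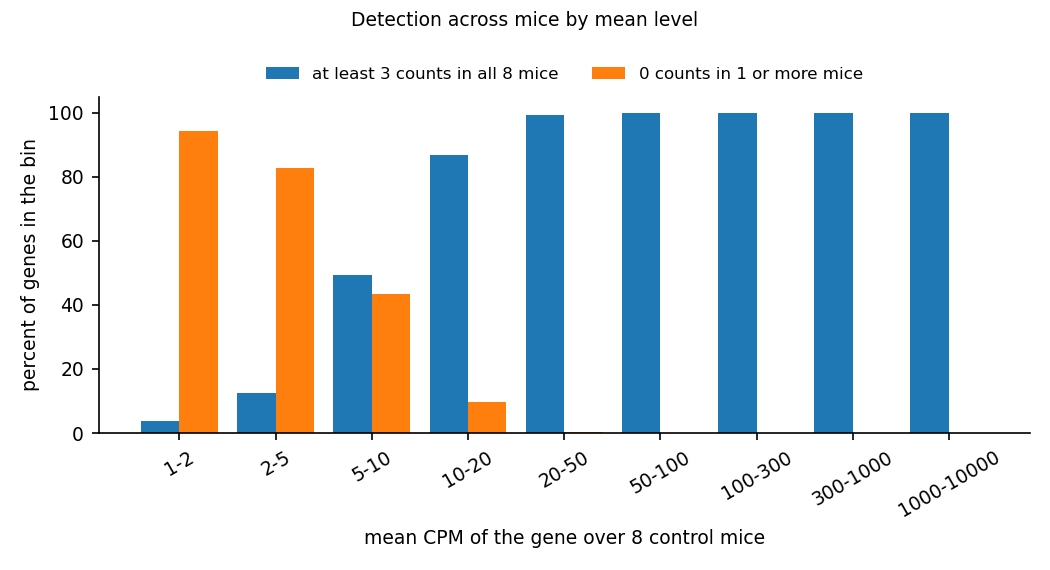
Percent of genes (y axis) with at least 3 counts in all 8 control mice, and percent with 0 counts in 1 or more mice, by mean CPM of the gene (x axis). Detection in all mice rises from 3.77% of genes at 1 to 2 CPM to 86.9% at 10 to 20 CPM and 100% above 50 CPM.

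Other cell types were represented to very different degrees. Oligodendrocyte mRNA was the largest, with a summed level for 15 markers between 3265 and 6393 CPM (median 4447) against 11327 to 14181 CPM for the 4 dopaminergic markers. Mbp, the myelin basic protein, averaged 1818 ± 396 CPM. The 16 astrocyte markers summed to 1111 to 1950 CPM, with Aldoc highest at 544 ± 99.5 CPM. Per gene, the dopaminergic markers stood above the oligodendrocyte list by 3.43 ± 0.38 and above the astrocyte list by 5.15 ± 0.34 on the log2 scale (SD, n = 8).

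The remaining lists were low. GABAergic markers summed to 279 to 568 CPM, with Gad2 at 86.5 ± 28.9 and Gad1 at 55.1 ± 23.1 CPM, both highest in mouse 3. The 14 microglial markers summed to 113 to 348 CPM and the 13 endothelial and mural markers to 66.5 to 137 CPM. Glutamatergic markers of the cortex and hippocampus came to 7.06 to 44.9 CPM with Slc17a8 and Tbr1 among the members at 0 in all mice. Markers of serotonergic, noradrenergic and cholinergic neurons came to 0.0908 to 14.6 CPM with Slc6a2 and Slc18a3 among the members at 0 in all mice, and those of blood and choroid plexus to 1.89 to 11.5 CPM with Kl at 0.

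No relation between these lists and the dopaminergic markers across mice passed its test. Over 8 mice the correlation of the log2 summed level of the 4 dopaminergic markers was -0.62 with the microglial list (rho = -0.64), -0.57 with the oligodendrocyte list (rho = -0.43), -0.52 with the GABAergic list (rho = -0.14), -0.41 with the astrocyte list (rho = -0.21) and 0.26 with the endothelial and mural list (rho = 0.19). In exact permutation tests the raw p-values for r were 0.0987, 0.138, 0.192, 0.315 and 0.540 in that order (for rho 0.0962, 0.299, 0.752, 0.619 and 0.665), and none of the 5 passed adjustment (adjusted p from 0.321 to 0.540 for r and from 0.481 to 0.752 for rho). Without the 2 mice farthest from the median of the dopaminergic level, r was -0.55, -0.44, -0.13, -0.36 and -0.31. The sum of all lists is a share of the same total, so their values are tied to each other by construction.

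**Figure D3:**
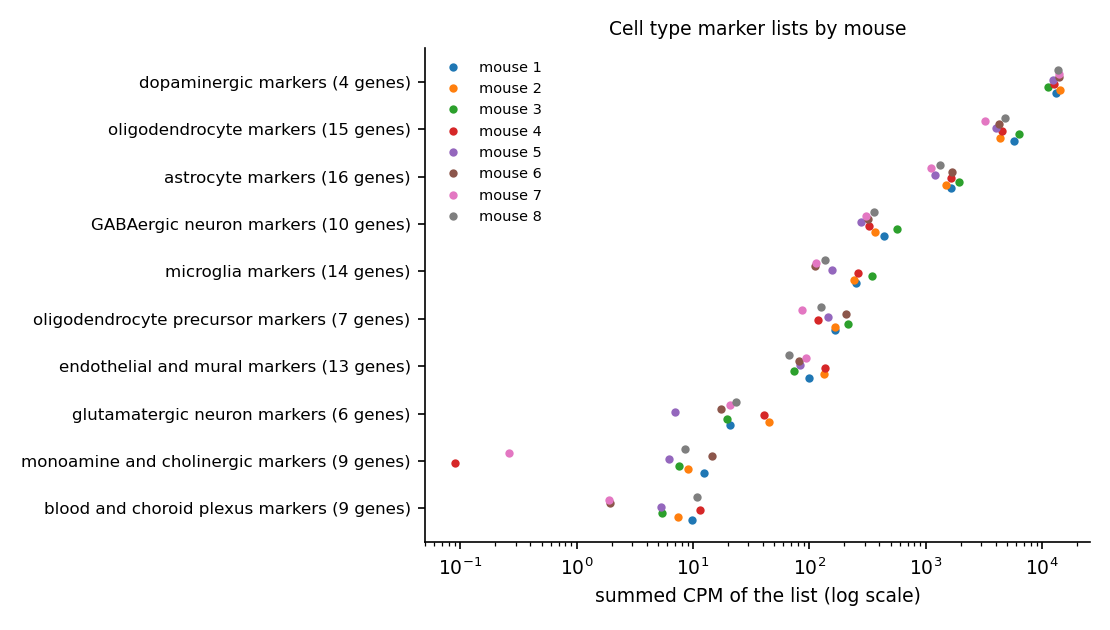
Summed CPM (x axis, log scale) of each cell type marker list, 1 point a mouse, for the 8 control mice. Dopaminergic markers lie between 11327 and 14181 CPM, oligodendrocyte markers between 3265 and 6393, and the blood and choroid plexus list between 1.89 and 11.5.

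Variation between the libraries of the mice fell with level, and was far above the noise of read counting at every level. The median CV was 0.591 for genes at 10 to 20 CPM, 0.277 at 50 to 100 CPM and 0.103 above 1000 CPM, while counting alone would give 0.0583, 0.0266 and 0.00585. The variance of the raw counts was in the median 104 times their mean at 10 to 20 CPM. It was 133 times at 100 to 300 CPM and 300.7 times above 1000 CPM. These values also hold the differences in depth between libraries, which the CVs of CPM do not. Each mouse gave a single library, so differences between animals and between library preparations cannot be told apart. A gene's spread was therefore read against genes of like level, as the log2 of its CV over the running median CV of the genes nearest in mean CPM (variability score). A score of 1 means a CV 2 times that of its peers.

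**Figure D4:**
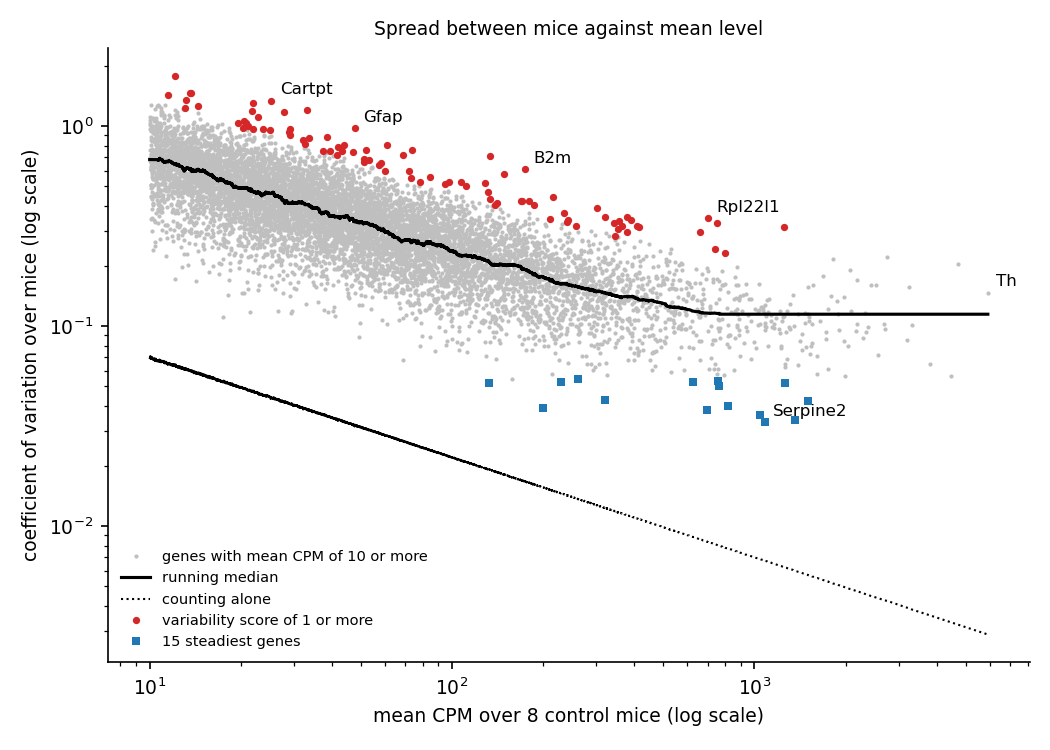
CV over the 8 control mice (y axis, log scale) against mean CPM (x axis, log scale) for 9114 genes, with the running median (line), the CV from counting alone (dotted), the 92 variable genes (red) and the 15 steadiest genes (blue squares). The running median falls with level and stays well above the counting line throughout.

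The steadiest gene with a mean of at least 50 CPM was Serpine2, a serine protease inhibitor also known as protease nexin, which stayed between 1029 and 1120 CPM in all 8 mice (CV 0.0331). Close behind were Prkar1a, the regulatory subunit of protein kinase A (1306 to 1446 CPM, CV 0.0339), and Syngr3, a synaptic vesicle protein that binds the dopamine transporter (991 to 1105 CPM, CV 0.0362). Among the 15 steadiest were also the sodium pump subunit Atp1b1 (CV 0.0520), the microtubule end-binding Mapre3 (CV 0.0519), the complex I subunits Ndufb6 (CV 0.0427) and Ndufc2 (CV 0.0530) and the proteasome subunit Psmb1 (CV 0.0503). The others were Pld3, Aarsd1, Ndfip1, Ndn, Gabarapl2, Ywhae and Enho. For Aarsd1 and Ndufb6, 39.8% and 31.6% of 50-base stretches were shared with other genes, so reads may have been split. As a group the 31 proteasome genes were even, with a summed CV of 0.0412.

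Common reference genes were not equally steady. Gapdh had a CV of 0.0725 and Actb of 0.0819, but Hprt had 0.187, with values from 387 to 647 CPM. B2m, another common reference, was the second most variable gene of all.

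Of 9114 genes with a mean of at least 10 CPM, 92 (1.01%) had a score of 1 or more and are called variable below. Which genes were called depended on the measure of spread: the median absolute deviation over the median gave 399 genes, 40 of them among the 92, and edgeR's tagwise dispersion against its trend gave 5, 4 of them among the 92. None of the 4 dopaminergic markers and none of the 30 scored genes of the wider dopaminergic list was among them; Calb1 came nearest with a score of 0.97. The markers lay above the middle of all genes, with a median score of 0.40 against 0 over all scored genes. Of 75 OXPHOS genes 1 was variable, the complex III core protein Uqcrc2 (138 to 390 CPM, score 1.01), just inside the threshold, and the class had a median score of -0.21. The ribosomal protein genes, with the variable Rpl22l1 among them, were steadier still, with a median score of -0.60 over 82 scored genes. Just outside the threshold were Map2, Tmem35a and Wdr17 at 0.99, and just inside were Ankrd11 and Tmem43 at 1.00.

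Mouse 1 carried many of the calls. It held the highest value for 42 of the 92 genes, while it was highest for 14.9% of all genes scored. Without mouse 1, 79 genes were variable, of which 51 were among the 92. Over 4251 genes with a mean of at least 50 CPM, the ratio of mouse 1 to the other mice also rose with transcript length (Spearman 0.15, the highest of the 8 mice, which ran from -0.16), with a median log2 ratio of -0.13 for transcripts of up to 1500 bases. The part of this in the calls was not tested. The uncharacterised X-linked transcript C230004F18Rik was at 351 CPM in mouse 1 against a median of 97.0 over all mice. Cept1, an enzyme of phospholipid synthesis, reached 206 CPM there against a median of 57.6, Tmem30a, a flippase subunit, 687 CPM against 336, and the sodium leak channel Nalcn 166 CPM against 48.0. Of the 20 genes with the highest scores, 6 had a score below 1 without this mouse: C230004F18Rik, Cept1, Nalcn, Ddx3x, 2900052N01Rik and Tmem30a. Zfp930, at 64.3 CPM in mouse 1 and a median of 2.73, was not scored without it, since its mean fell below 10 CPM.

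Glial and peptide genes in the variable set were led by single mice as well. Gfap, the filament protein of reactive astrocytes, was at 152 CPM in mouse 4 and had a median of 35.6, and its score fell from 1.53 to 0.66 without mouse 4. Cartpt, a neuropeptide precursor of neighbouring midbrain cells, reached 107 CPM in mouse 4 against a median of 12.7, with a score of 0.11 without it, and Colgalt1, a collagen galactosyltransferase, reached 97.5 CPM there, with a score of 0.94 without it. Usp18, an interferon-induced protease, was at 87.7 CPM in mouse 2, with a score of 0.54 without it. Cdkn1a, the cell cycle inhibitor p21, ran from 332 CPM in mouse 6 to 918 CPM in mouse 5, and its score was 0.98 without mouse 6.

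The other 8 of the 20 kept a score of 1 or more whichever mouse was left out, among them B2m, Rpl22l1, Ddx3y, H2-D1, Malat1, H2-K1 and Gpx3. The nuclear RNA Malat1 ran from 453 to 1186 CPM and was highest in mouse 1. Gpx3, a secreted glutathione peroxidase, ran from 129 CPM in mouse 6 to 480 CPM in mouse 5. Ddx3y was at 0 in mice 1, 2, 5 and 6 and at 97.7, 32.0, 57.7 and 76.7 CPM in mice 3, 4, 7 and 8. Its X-linked partner Ddx3x was highest, at 415 CPM, in mouse 1. Xist, the RNA of X inactivation, was at 0 in 6 mice and reached 3.86 CPM at most. The 5 listed sex-linked genes, Ddx3y and Xist among them, summed to 142, 54.3, 74.2 and 119 CPM in mice 3, 4, 7 and 8. In mice 1, 2, 5 and 6 the sum was 0.198, 0, 0 and 3.86 CPM. Mice 3, 4, 7 and 8 thus held mRNA of a gene on the Y chromosome, while sex could not be read from these libraries for mice 1, 2, 5 and 6. The part of sex in the spread between mice was not tested.

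In the 8 MCU-KO mice of the series, which had no part in these scores, many of these genes were uneven again. There 121 of 9151 genes were variable (1.32%), and 17 genes were variable in both sets, which is 18.5% of the 92 and 14.0% of the 121. Of the 88 variable genes that could be scored there, 69 had a score above 0 (78.4%, against 49.8% of all genes), with a median of 0.37. Across 8747 genes the rank correlation of the 2 sets of scores was 0.23, a description only, since genes are not independent replicates.

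The gene that carries the tag was itself among the most variable. Rpl22l1 (chromosome 3, 28805436 to 28807424, plus strand) encodes a ribosomal protein of the large subunit, and the vector carries the same coding sequence, so reads from the gene and from the vector cannot be told apart. Its level was 863, 927, 742, 903 and 913 CPM in mice 1 to 5, and 316, 482 and 471 CPM in mice 6, 7 and 8. These values left a gap between 482 and 742 CPM. Its paralog Rpl22, which the vector does not carry, averaged 84.2 ± 29.2 CPM and was highest in mouse 3.

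Genes of antigen presentation and the interferon response were uneven too. B2m, the light chain of class I major histocompatibility molecules (chromosome 2, 122147686 to 122153083, plus strand), stood at 160, 243, 341, 293 and 134 CPM in mice 1 to 5 and at 94.5, 57.5 and 71.6 CPM in mice 6, 7 and 8. The class I heavy chain H2-D1 was at 102, 224, 217, 277 and 168 CPM in mice 1 to 5 and at 56.0, 50.8 and 89.4 CPM in mice 6 to 8. H2-K1, a second heavy chain, was at 49.4, 129, 129, 121 and 54.3 CPM in mice 1 to 5 and at 33.1, 22.5 and 12.4 CPM in mice 6 to 8. For each of these 3 genes, the 3 lowest mice were mice 6, 7 and 8, which were also the 3 lowest in Rpl22l1. The same mice had the smallest library totals, 19173868, 18999107 and 19832822 counted reads. They also had the highest shares of counts in the 100 most abundant genes (18.1%, 17.8% and 17.4%). These mice were thus set apart in library-wide measures too, and the part of this in the 3 genes was not tested. Of their 50-base stretches, 12.8% in H2-D1 and 9.63% in H2-K1 were shared with other genes.

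The whole list of 18 interferon response genes was uneven as well. Its summed level was 347, 829, 605, 793 and 475 CPM in mice 1 to 5 and 182, 133 and 235 CPM in mice 6, 7 and 8, a CV of 0.603. Of 12 members scored, 3 were variable (Usp18, H2-K1 and H2-D1), against 1.01% of all genes scored. A score above 0 was found in 10 of the 12, against 4548 of all 9114, with a median of 0.65. The 3 variable members were already named above for their high scores, so their count is no separate result. H2-D1 (mean 148 CPM) and H2-K1 (mean 68.9 CPM) also make up much of the mean list sum of 450 CPM. Ifit1, an RNA-binding antiviral protein, was at 55.99 CPM in mouse 2 and 57.7 CPM in mouse 4, and at 0 in mouse 6. Bst2, which tethers enveloped viruses, was at 45.8 CPM in mouse 4 and at 1.67 CPM in mouse 6. The summed microglial list was at 254, 242, 348, 260 and 157 CPM in mice 1 to 5 and at 113, 115 and 137 CPM in mice 6, 7 and 8. Of its 14 members, 7 had at least 3 counts in every mouse, not far from the 39.4% of all 25006 genes listed. Mice 6, 7 and 8 were also the lowest for some other variable genes. Examples were Cdkn1a (332, 492 and 591 CPM) and Tmem43 (67.2, 65.4 and 93.3 CPM). Others differed, such as Gpx3, with mouse 1 (217 CPM) below mice 7 (239 CPM) and 8 (221 CPM). How many of all scored genes were lowest in these mice was not counted. The part of microglial RNA or of the level of the tag in the interferon genes was not tested.

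**Figure D5:**
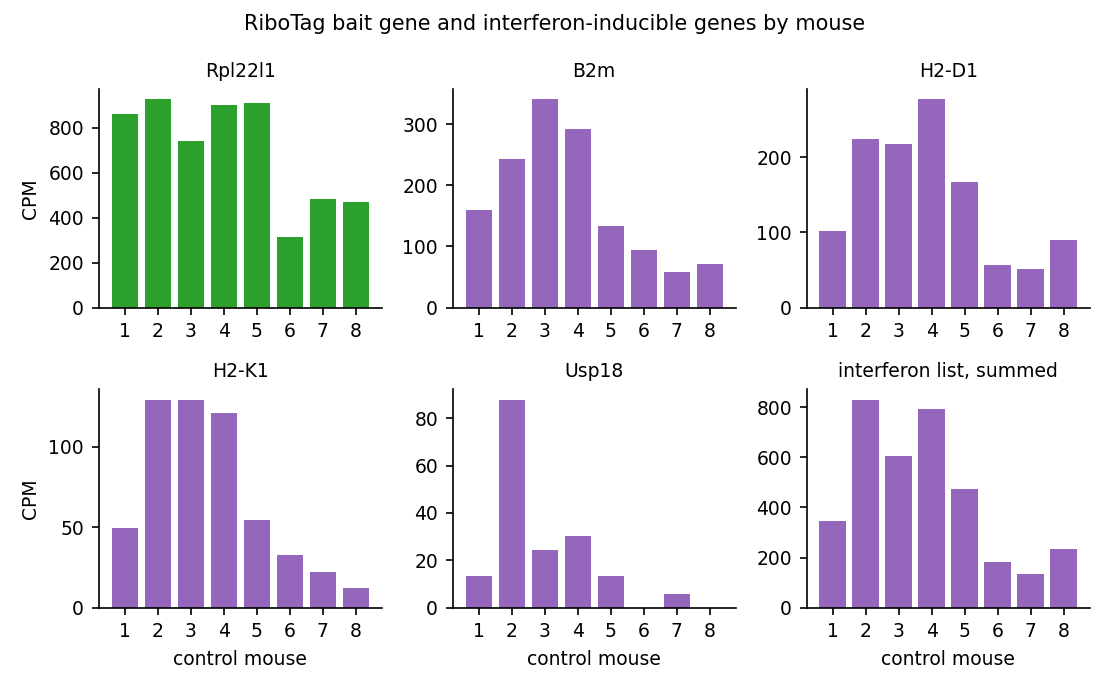
CPM (y axis) in each control mouse (x axis) of Rpl22l1, B2m, H2-D1, H2-K1, Usp18 and the summed list of 18 interferon response genes. Mice 6, 7 and 8 are the lowest 3 in Rpl22l1 (316 to 482 CPM) and in the summed list (133 to 235 CPM), and mouse 2 stands out in Usp18. The share of all scored genes that were lowest in these mice was not counted.

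Several promoters of these genes hold the sequence that interferon-activated factors are known to bind. The core GAAANNGAAA, on either strand, occurs between 250 bases before and 50 after the start of 7 of the 13 interferon genes with a RefSeq promoter (53.8%), against 3.99% of 27025 genes and 3.45% of the 7270 genes with a mean of at least 10 CPM. The list was made of known interferon response genes, so this excess follows from the choice of list. It is no result about these mice. It occurs in 4 of 78 variable genes with a promoter (5.13%), in 6 of 72 of the 100 steadiest genes (8.33%) and in 0 of the 4 dopaminergic markers. The stretches below (RefSeq, GRCm38.p6, read on the strand of the gene, core in capitals) show a match in B2m and in members of the list that were lowest in mouse 6. The heavy chains H2-K1 and H2-D1 gave no match, whether for lack of a listed promoter or of the core. In Ifit1 and Ifit3 the core lies on the opposite strand, so it reads as TTTCNNTTTC.
B2m, chr2:122147528-122147577, plus strand: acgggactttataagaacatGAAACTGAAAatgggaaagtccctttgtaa
Bst2, chr8:71537567-71537616, minus strand: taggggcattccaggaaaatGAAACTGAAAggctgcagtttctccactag
Ifit1, chr19:34640784-34640833, plus strand: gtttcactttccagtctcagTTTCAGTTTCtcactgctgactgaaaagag
Ifit3, chr19:34583387-34583436, plus strand: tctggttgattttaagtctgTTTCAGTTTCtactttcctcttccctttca
These matches were picked for display because B2m and Bst2 share the same 10 bases, and Ifit1 and Ifit3 the reverse complement of these. Oas1a holds the same 10 bases and Stat2 their reverse complement, and these are not shown. Irf7, Oasl2, Usp18 and Rtp4, also at 0 in mouse 6, gave no match, whether for lack of a listed promoter or of the core. The core begins 139 bases before the start of B2m, 124 before Bst2, 85 before Ifit1 and 122 before Ifit3. Bst2, Ifit1 and Ifit3 each hold another core with other letters, 130, 104 and 156 bases before the start. A match describes these letters and does not show that a factor was bound.

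The TATA box, TATAAA on either strand, lay in the same window of 5 of the 13 interferon genes (38.5%), of 7 of the 78 variable genes (8.97%) and of 8 of the 72 steadiest genes (11.1%), against 15.7% of 27025 genes and 8.10% of the 7270 genes with a mean of at least 10 CPM.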

How the data were processed

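Read counts per gene for each mouse were used as the authors deposited them (HTSeq counts of STAR alignments to mm10 after Trim Galore, per the submitters' processing notes; versions and strand setting were not given in the sources used here). The counts carry no molecular identifiers, so floors cover counting error only. Gene names, lengths and coordinates came from GENCODE M21, which paired 24991 of 25006 identifiers with a symbol. CPM was the count over the library's total; no other filter was used unless stated. One group was described, so the tests were sign-flip tests of within-mouse ratios and exact permutation of correlations. The variability score used genes with a mean of 10 CPM or more; the genes of highest level share the window at that end. TMM factors and dispersions came from edgeR 4.0.16 and size factors from DESeq2 1.42.0, with Python 3.11.15, and the score was tested on simulated data. The mice labelled MCU-KO were used only to see whether scores and the relation of the tag gene recurred.

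Named genes were the 20 highest per kb, the 10 highest by CPM, the 15 of lowest CV at a mean of 50 CPM or more, the 20 of highest score, 5 on each side of a score of 1, the 10 highest with a 0, and set members of each list. A few genes that this rule names are not reported here. Genes and lists were chosen with earlier results of these data known.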

Additional observations from a re-analysis of the deposited data

Results flagged for a closer look

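Among 126 gene and list levels examined over the 8 control mice, 15 had a mouse whose value lay farther from the rest than Dixon's limit for 8 values. Chance alone does this in about 1 group in 20, but 8 of the 15 were among the 20 genes picked for the highest variability score, to which that rate does not apply. In 7 of the 15 it was mouse 1 that was high: C230004F18Rik at 351 CPM, Cept1 at 206 CPM, Zfp930 at 64.3 CPM, 2900052N01Rik at 83.4 CPM, Tmem30a at 687 CPM, Tac1 at 58.6 CPM and Ndufb6 at 348 CPM. Ndufb6 is among the steadiest genes all the same, with a lowest value of 304 CPM. Mouse 6 was high for Uqcr10 (1051 CPM), Tmsb4x (2339 CPM) and Dlk1 (2413 CPM), and mouse 4 for Cartpt (107 CPM), Gfap (152 CPM) and Vip (13.8 CPM). Usp18 stood out in mouse 2 at 87.7 CPM and Nr4a2 in mouse 8 at 348 CPM. None of the library totals and none of the list sums was so far apart.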

How the results depend on the processing

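No paired analysis was possible because a single group of mice was described. Detection counts kept within 1.5 times under a floor of 1 count (10152 genes in all mice), a floor of 10 counts (9469) and thinning to the smallest library (9824). The number of variable genes was 98 with TMM scaling and 97 with DESeq2 size factors, and ranged from 79 to 133 when each mouse was left out. It moved to 54 with a mean of at least 50 CPM, to 399 with the median absolute deviation over the median, and to 5 with edgeR's tagwise dispersion against its trend, which draws each gene toward the trend by construction. Of the 92 genes, 11 were called in all 8 leave-outs. Without mouse 1, 2900052N01Rik had a score of -0.0257. With the longest transcript as length, Th moved to 3032, Slc18a2 to 384 and Ddc to 1175 CPM per kb, 17 of the top 20 genes remained, and the log2 ratio of Slc6a3 to Ddc turned to -0.33. Leaving out each mouse gave 1.34 to 1.49 for Th over Slc6a3, 0.76 to 0.85 for Slc6a3 over Ddc and 0.68 to 0.77 for Ddc over Slc18a2. With a mean of log2 CPM, the dopaminergic markers stood above astrocyte, oligodendrocyte, microglial, endothelial and GABAergic lists by 6.27, 4.85, 9.32, 10.8 and 8.67 (log2), against 5.15, 3.43, 7.94, 8.84 and 6.51 from summed levels, and r turned to 0.0803 for the oligodendrocyte and to -0.23 for the endothelial and mural list. Leaving out the mitochondrially encoded genes changed no share, since all 13 were listed at 0. With 8 mice, a spread could be described but the cause of a high mouse was not tested.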

Other observations

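Immediate-early genes, which rise within minutes of strong activity or stress, were examined in these libraries. Of 20 such genes, 7 passed 3 counts in every mouse, near the 39.4% of all genes listed, their sum ran from 235 to 476 CPM, and Egr2, Egr3 and Egr4 were at 0 in all 8 mice. Jund, which is expressed in resting cells as well, was the highest per kb at 89.5 ± 24.4 (SD, n = 8). Heat shock and stress genes summed to 3412 to 4553 CPM, and were led by the chaperones Hspa8 (350 ± 54.7 CPM per kb) and Hsp90aa1 (325 ± 38.6 CPM per kb).

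Long non-coding RNAs took little of the libraries, as the 1233 lincRNA genes held 0.231% ± 0.046 of counts and 51 of them passed 3 counts in all mice. Gas5, a host of small nucleolar RNAs, was the steadiest named one, between 182 and 237 CPM, whereas Malat1 ran from 453 to 1186 CPM.

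In the 8 MCU-KO mice, examined after the pattern in the control mice had been seen, log2 Rpl22l1 (543 to 1055 CPM) and the log2 summed interferon list (164 to 3387 CPM) had r = 0.76 (exact permutation p = 0.0219) and rho = 0.55 (exact permutation p = 0.171), with r = 0.61 without the 2 mice farthest from the median of Rpl22l1. No such coefficient is given for the control mice, whose Rpl22l1 levels fell into separate clusters.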
